A study of Rattus norvegicus with 4 samples.

Results

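The genes described here are those of glycolysis and of the response to low oxygen, in cells of rat skin wounds. The list holds 37 genes, chosen by symbol, of which 36 were matched to a row among the 23999 genes of the count tables, 35 under the listed symbol and Car9 under its RefSeq synonym Ca9 (ENSRNOG00000017073). Gapdh was not analysed here. Wound tissue of a rat healing model was collected on day 4 and profiled by 10x Genomics single-cell RNA sequencing in 4 libraries, called uninjected 1, uninjected 2, injected 1 and injected 2. Injected wounds received purified migrasomes, organelles that migrating cells leave on their retraction fibres, and uninjected wounds received nothing, so that an effect of the injection itself and one of the migrasomes cannot be told apart. The labels give no strain, sex or age, and do not say that the libraries of a group came from separate animals, so p-values here reflect library-to-library spread alone, and that spread may be technical.

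Glycolysis splits glucose into pyruvate in a chain of enzymes: hexokinases trap glucose in the cell, phosphofructokinase commits it, aldolase cleaves it, and the triose enzymes recover ATP. When oxygen is scarce, prolyl hydroxylases of the Egln family stop marking the transcription factors Hif1a and Epas1 for breakdown, and these raise glucose uptake, glycolytic enzymes, lactate release, mitophagy genes and collagen hydroxylases. A skin wound is short of oxygen where its vessels are broken, and neutrophils rely mainly on glycolysis.

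Hypoxia-inducible factors bind a short core sequence, ACGTG or GCGTG, and the promoters of 5 members with large differences in this data set are shown to let a reader see where that core occurs. Each window runs from 250 bases before to 50 bases after the gene start in RefSeq, build GRCr8, and the letters of either core on either strand are in capitals. The order is Egln3 (chr6:77410966-77411265, minus strand), Bnip3 (chr1:203154913-203155212, minus strand), Ldha (chr1:106507842-106508141, plus strand), P4ha2 (chr10:38743644-38743943, plus strand) and Ddit4 (chr20:28436988-28437287, minus strand).
Egln3: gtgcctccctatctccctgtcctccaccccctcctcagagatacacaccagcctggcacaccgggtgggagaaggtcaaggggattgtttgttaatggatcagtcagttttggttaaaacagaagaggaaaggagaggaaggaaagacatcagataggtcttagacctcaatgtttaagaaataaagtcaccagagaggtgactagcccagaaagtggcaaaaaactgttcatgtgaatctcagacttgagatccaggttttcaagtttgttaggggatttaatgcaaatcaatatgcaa
Bnip3: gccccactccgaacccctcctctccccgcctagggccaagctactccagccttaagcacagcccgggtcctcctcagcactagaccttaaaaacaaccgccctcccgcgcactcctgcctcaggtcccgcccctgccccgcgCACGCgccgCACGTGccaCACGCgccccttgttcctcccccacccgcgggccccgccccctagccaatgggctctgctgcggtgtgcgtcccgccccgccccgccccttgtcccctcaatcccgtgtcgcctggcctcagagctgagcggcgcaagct
Ldha: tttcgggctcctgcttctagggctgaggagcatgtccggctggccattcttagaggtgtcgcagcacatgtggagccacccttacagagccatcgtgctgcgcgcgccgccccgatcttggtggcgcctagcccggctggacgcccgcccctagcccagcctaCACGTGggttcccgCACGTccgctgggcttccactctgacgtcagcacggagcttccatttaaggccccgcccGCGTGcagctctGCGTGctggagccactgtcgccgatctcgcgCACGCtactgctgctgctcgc
P4ha2: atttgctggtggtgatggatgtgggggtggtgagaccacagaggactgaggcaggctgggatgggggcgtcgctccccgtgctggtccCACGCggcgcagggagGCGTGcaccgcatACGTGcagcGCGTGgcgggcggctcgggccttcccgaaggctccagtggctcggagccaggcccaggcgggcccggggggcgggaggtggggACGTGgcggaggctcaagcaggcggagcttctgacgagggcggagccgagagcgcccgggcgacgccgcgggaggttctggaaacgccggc
Ddit4: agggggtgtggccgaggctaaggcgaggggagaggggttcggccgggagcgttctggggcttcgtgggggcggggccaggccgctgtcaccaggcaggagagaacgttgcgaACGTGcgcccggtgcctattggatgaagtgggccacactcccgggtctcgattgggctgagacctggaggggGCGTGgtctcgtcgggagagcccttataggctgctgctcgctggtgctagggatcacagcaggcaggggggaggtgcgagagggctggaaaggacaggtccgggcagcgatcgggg

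The Ldha window held 6 matches, that of P4ha2 5, that of Bnip3 4 and that of Ddit4 2, while the Egln3 window held 0. The palindrome CACGTG, present once each in the Ldha and Bnip3 windows, was counted on both strands. Of 31 members with a window, 22 (71.0%) held at least 1 match, against 42.9% of the 27457 genes with a window. Only the first listed window of a gene was counted. Some genes have further starts, and a later window of Aldoa and of Hk1 held 1 match each that was not counted. At least 2 matches were found in 54.8% of these members and in 20.1% of all genes. A match is a string of letters and not a measured binding site, and the counts carry no test. The list was chosen for glycolysis and the response to low oxygen, so a higher share could be foreseen without these data. All genes were taken as they are, with no matching for base content. Members such as Slc16a3, Hk2, Tpi1, Epas1, Pkm and Pfkfb4 held 0 matches in the same window.

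The libraries held 75823418 to 105605297 UMIs. Cells were assigned to classes by marker genes, which placed 27315 of 36892 barcodes, and the 6 classes with at least 50 cells in every library were tested: keratinocyte-like, neutrophil-like, macrophage-like, dendritic-like, T and NK-like and fibroblast-like cells. In every library each such class carried its own markers at higher summed levels than the markers of any other class. This follows from the assignment by the same markers and is no separate check of the classes. The macrophage-like class was thinnest in uninjected 1, with 54 cells and 140975 UMIs. The 13 measured keratinocyte markers summed to 1575 CPM in these cells and to 487 to 716 CPM in the macrophage-like cells of the other libraries. In neutrophil-like cells they summed to 4240 CPM in uninjected 1 and to 1194 to 1667 CPM in the others, and the 9 neutrophil markers themselves to 38611 CPM against 9946 to 13464 CPM. Keratinocyte markers were also highest in uninjected 1 in dendritic-like cells (1199 against 455 to 582 CPM) and in T and NK-like cells (1499 against 474 to 703 CPM), and the part of these levels in the differences between groups was not tested. Uninjected 1 also stood apart in its ribosomal share: ribosomal protein genes took 16.15% of the UMIs of its fibroblast-like cells against 7.33% to 8.59% in the others, and 119 of the 5656 genes with a test in every class exceeded each other library there by 1 log2 unit, in all 6 classes. No member was among them. In uninjected 1, 63.2% of barcodes were assigned, against 73.8% to 81.4% in the others. A mixture of 2 classes explained 13.5% of its barcodes better, against 8.0% to 9.1%. It held 98 T and NK-like cells against 155 to 396, and 158 dendritic-like cells against 354 to 625. Its median UMIs per cell were the lowest in every tested class, and the part of this in the differences was not tested. Pairs of libraries shared 8 to 18 barcodes of assigned cells, at most 0.29% of the smaller library. Levels below are CPM, a gene's share of the UMIs of the class in its library, scaled within the class by TMM.

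Between injected and uninjected wounds, no member passed edgeR's quasi-likelihood test in any of the 6 classes at an adjusted p under 0.05. The share of all tested genes that passed was 0.0% in keratinocyte-like, neutrophil-like, dendritic-like and T and NK-like cells, 0.0119% in macrophage-like cells and 0.0295% in fibroblast-like cells. Members with an unadjusted p under 0.05 numbered 4 of 35 in keratinocyte-like, 1 of 31 in neutrophil-like, 4 of 33 in macrophage-like, 3 of 32 in dendritic-like, 4 of 29 in T and NK-like and 6 of 35 in fibroblast-like cells. The corresponding shares of all genes were 4.75%, 9.43%, 4.32%, 5.08%, 7.28% and 10.7%. The DESeq2 Wald test passed 1 member, Ddit4, in fibroblast-like cells.

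By estimate, most members sat above 0, where 46.3% to 53.5% of all genes did, by class. In keratinocyte-like cells 22 of 35 were higher in injected wounds, with a median log2 difference of 0.20 against 0.01 for all genes. In neutrophil-like cells 22 of 31 were higher, with a median of 0.33 against −0.06. In macrophage-like cells 22 of 33 were higher, with a median of 0.40 against 0.04. In fibroblast-like cells 24 of 35 were higher, with a median of 0.19 against 0.00. Dendritic-like cells (18 of 32 higher, median 0.12) and T and NK-like cells (16 of 29 higher, median 0.10) lay closer to the medians of all genes, which were 0.00 and −0.01.

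Both injected libraries lay above both uninjected libraries for 15 of 35 members in fibroblast-like cells, against 21.6% of all genes, and for 15 of 33 in macrophage-like cells, against 21.0%. The corresponding counts were 14 of 31 in neutrophil-like (19.7% of all genes), 12 of 35 in keratinocyte-like (19.0%), 11 of 32 in dendritic-like (19.8%) and 10 of 29 in T and NK-like cells (21.6%). The opposite arrangement was found for 1, 4, 2, 4, 8 and 4 members in the same order, against 20.7%, 16.5%, 23.5%, 17.3%, 17.8% and 21.1% of all genes.

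**Figure D1:**
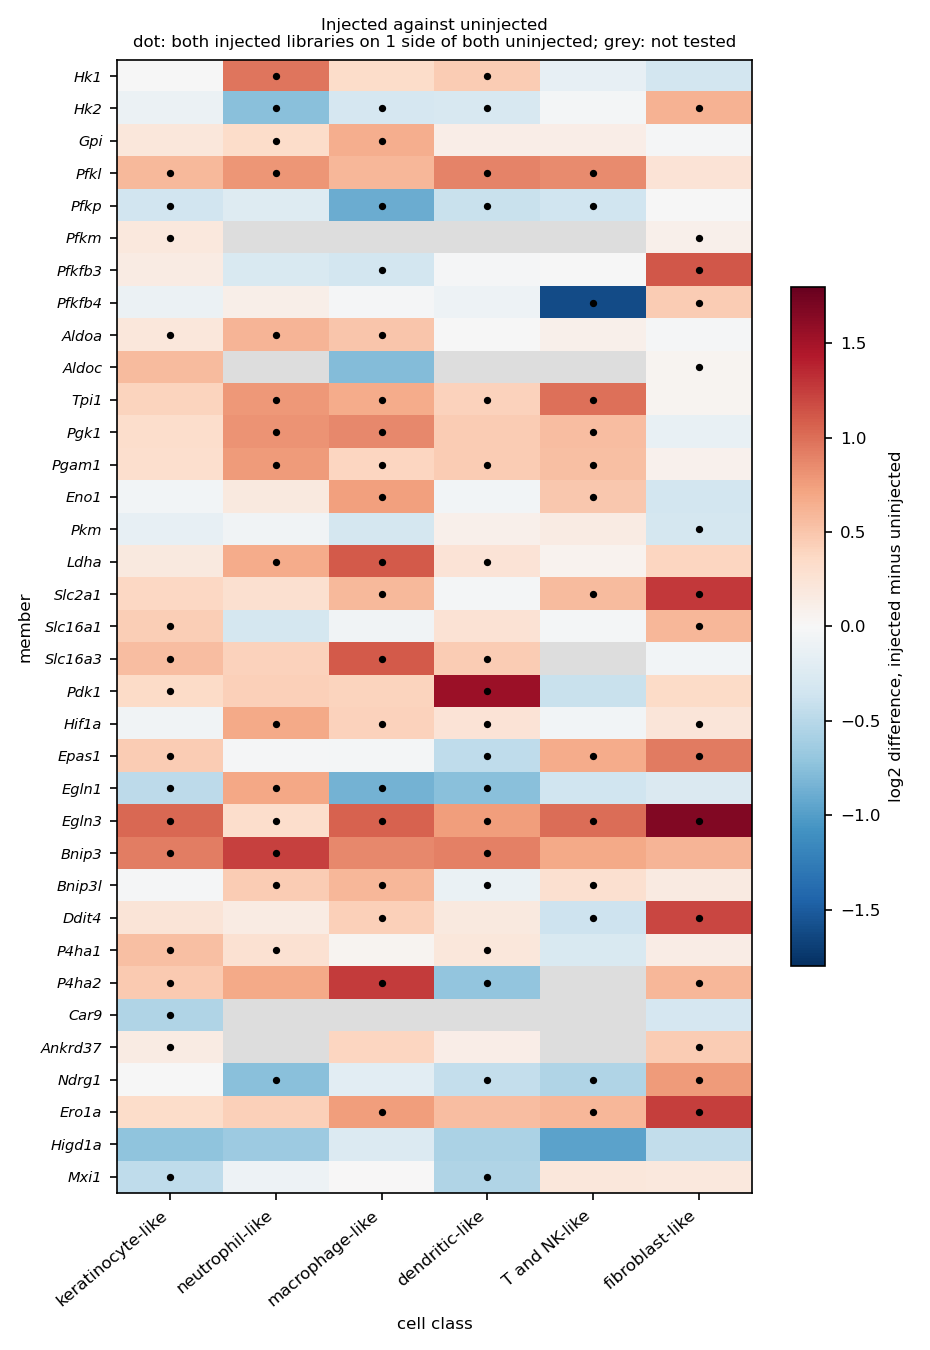
Log2 difference between injected and uninjected libraries (color, injected minus uninjected) for the 35 members tested in at least 1 class (rows) in the 6 cell classes (columns), with a dot where both injected libraries lie on 1 side of both uninjected libraries and grey where a member was not tested. Egln3 carries a dot in all 6 columns, the fibroblast-like column holds 15 dots on higher and 1 on lower estimates, and no cell passed the test at an adjusted p under 0.05.

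The libraries of a group were not alike. Uninjected 1 was the lowest of the 4 for 23 of 35 members in keratinocyte-like cells, 22 of 35 in fibroblast-like cells and 20 of 33 in macrophage-like cells. Injected 1 was the highest for 23 of 33 members in macrophage-like and 18 of 35 in fibroblast-like cells. Injected 2 was the highest for 0 members in macrophage-like and 6 in fibroblast-like cells. With uninjected 1 as the only control library, 9 members passed in neutrophil-like cells (beside 15.7% of all genes), 11 in fibroblast-like (11.1%), 3 in dendritic-like (6.84%), 3 in T and NK-like (8.18%), 2 in macrophage-like (1.46%) and 0 in keratinocyte-like cells (0.0%). With uninjected 2 as the only control library, 1 member passed in neutrophil-like cells, Bnip3 (2.92% of all genes), and 2 in fibroblast-like cells, Egln3 and Ddit4 (2.43%). In these fits the lone control is assumed to vary like the injected libraries. Without ribosomal and mitochondrial genes 0 members passed in each class, and the members' median log2 difference was 0.20 in keratinocyte-like, 0.32 in neutrophil-like, 0.40 in macrophage-like, 0.12 in dendritic-like, 0.09 in T and NK-like and 0.19 in fibroblast-like cells. Of 39 estimates followed through every alternative, those of the members with the smallest p in each class and of Egln3, 22 moved by more than 1.5 times when 1 library was left out.

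Among the oxygen sensors, Egln3, a prolyl hydroxylase that is itself a target of the hypoxia-inducible factors, was the only member, of 29 tested in all 6 classes, with both injected libraries above both uninjected libraries throughout, a pattern that 23 of 5656 such genes showed (0.407%). The classes come from the same 4 libraries and are not independent. Keratinocyte-like cells held 32.4 and 67.8 CPM in the uninjected and 107 and 98.6 CPM in the injected libraries, a log2 difference of 1.03 (SE 0.36, adjusted p = 0.835 by edgeR's quasi-likelihood test). Fibroblast-like cells held 10.2 and 8.33 CPM against 43.2 and 14.8 CPM, a log2 difference of 1.66 (SE 0.49, adjusted p = 0.401 in the same edgeR test). The injected fibroblast-like values therefore differed from each other more than injected 2 differed from the controls. Macrophage-like cells held 6.75 and 26.0 CPM against 52.5 and 40.7 CPM, a log2 difference of 1.07. The uninjected 1 value there rested on 1 UMI, as it did in T and NK-like cells. Those T and NK-like cells held 3.43 and 28.8 CPM in uninjected against 45.4 and 41.0 CPM in injected libraries, a log2 difference of 1.01. Dendritic-like cells held 8.01 and 46.1 CPM against 50.6 and 54.4 CPM, so uninjected 2 was close to the injected libraries. Neutrophil-like cells held 23.7 and 26.1 CPM against 29.0 and 33.5 CPM, a log2 difference of 0.31. Taking off the UMIs expected from free RNA left log2 differences of 1.04 in keratinocyte-like, 0.24 in neutrophil-like, 1.06 in macrophage-like, 0.76 in dendritic-like, 1.07 in T and NK-like and 1.70 in fibroblast-like cells. Single libraries carried much of these estimates. Without uninjected 1 the log2 difference was 0.60 in keratinocyte-like, 0.86 in macrophage-like, 0.19 in dendritic-like and 0.60 in T and NK-like cells, and without uninjected 2 it was 1.67, 2.77, 2.71 and 3.65 respectively. The fibroblast-like difference was 0.68 without injected 1 and 2.23 without injected 2.

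**Figure D2:**
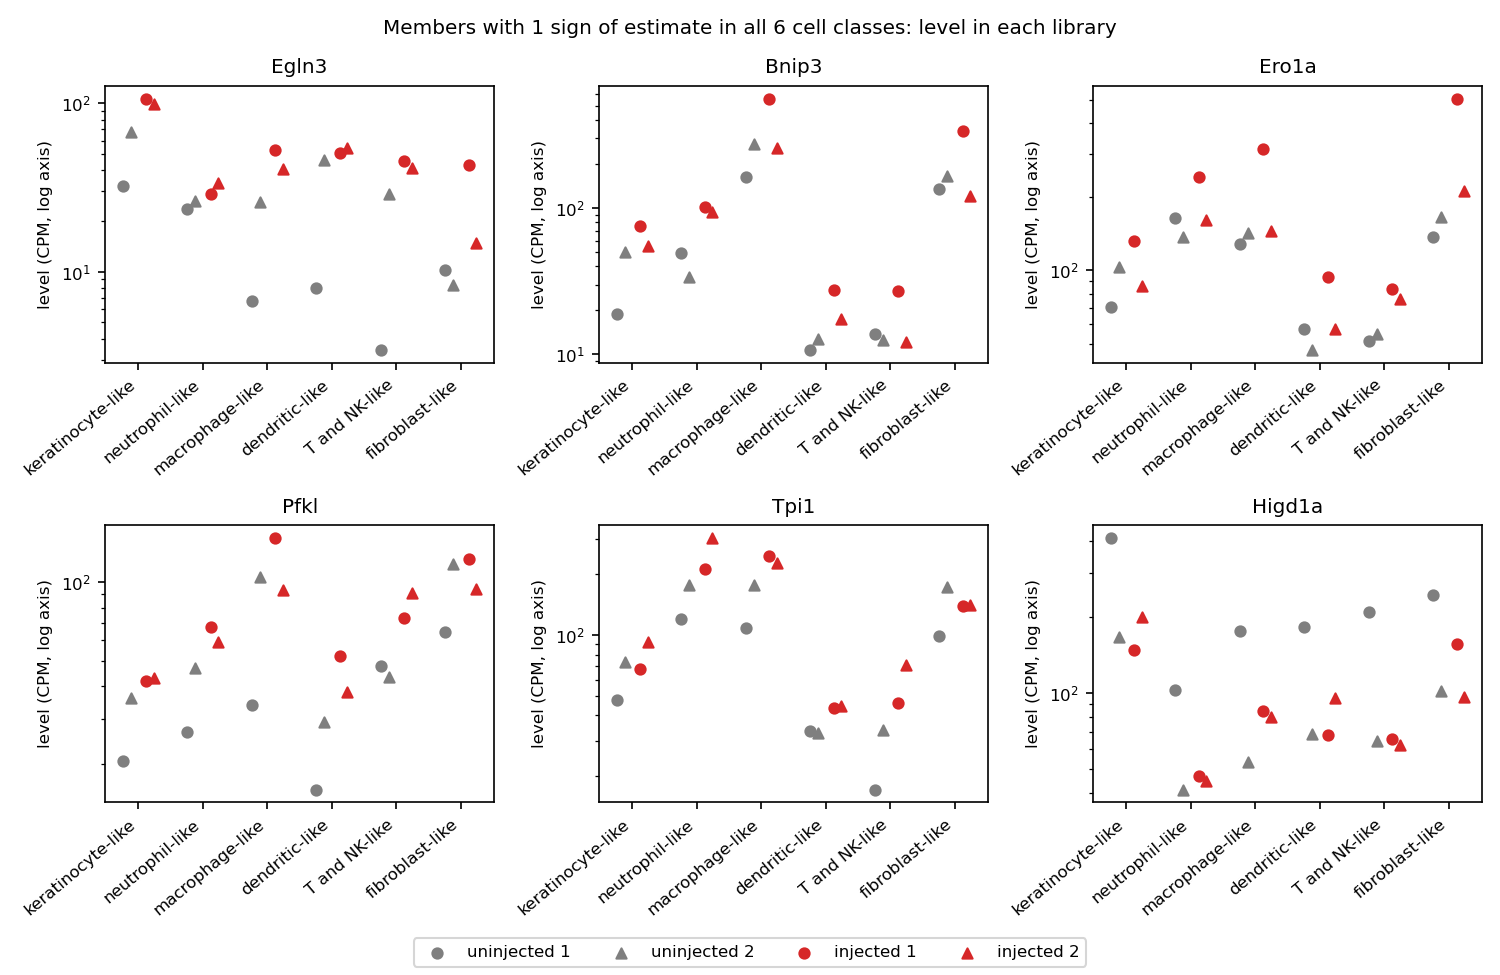
Level (CPM within the class, log axis) of 6 members whose estimate had 1 sign in all 6 classes, in each library: grey points are uninjected, red points injected, circles replicate 1 and triangles replicate 2. Egln3 shows both red points above both grey points in every class, while for Higd1a the grey circle of uninjected 1 is the highest point in every class.

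The paralog Egln1, the main prolyl hydroxylase in most tissues, went the other way by estimate in 5 of 6 classes. It was lower without overlap of the groups in keratinocyte-like, macrophage-like and dendritic-like cells, and higher without overlap in neutrophil-like cells. Keratinocyte-like cells held 6.96 and 6.18 CPM of Egln1 in uninjected and 4.91 and 4.54 CPM in injected libraries (log2 difference −0.47, SE 0.21, adjusted p = 0.835 by edgeR's quasi-likelihood test). Dendritic-like cells held 16.0 and 11.1 CPM against 7.95 and 7.19 CPM (log2 difference −0.75). Neutrophil-like cells held 30.1 and 25.5 CPM against 44.5 and 45.8 CPM (log2 difference 0.70, SE 0.34). Hif1a, the oxygen-labile factor itself, was higher without overlap in neutrophil-like, macrophage-like, dendritic-like and fibroblast-like cells, with log2 differences of 0.22 to 0.69 there. Epas1, its relative HIF-2 alpha, had 60.2 and 84.9 CPM in uninjected and 167 and 110 CPM in injected fibroblast-like cells, a log2 difference of 0.93 (SE 0.29, adjusted p = 0.425 by edgeR's quasi-likelihood test). In keratinocyte-like cells it had 14.2 and 17.2 CPM against 21.6 and 21.7 CPM (log2 difference 0.46, SE 0.18). Egln3, Egln1, Hif1a and Epas1 made 24 pairs of gene and class, 14 higher and 10 lower by estimate. Without overlap 14 were higher and 4 lower, beside 20.4% and 19.2% of all pairs.

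Glucose enters cells through Slc2a1, and lactate leaves or enters through Slc16a1 and Slc16a3. Slc2a1 in fibroblast-like cells had 79.2 and 117 CPM in the uninjected and 309 and 165 CPM in the injected libraries, with a log2 difference of 1.27 (SE 0.36, adjusted p = 0.396 by edgeR's quasi-likelihood test). The groups did not overlap, and injected 1 was the highest by far. In fibroblast-like cells the difference was 0.75 without injected 1. In T and NK-like cells it had 113 and 82.7 CPM against 125 and 159 CPM, a log2 difference of 0.57 that turned to −0.61 when cells were assigned from every second marker. It was 0.34 there without uninjected 2. In macrophage-like cells it had 311 and 366 CPM against 608 and 415 CPM. Slc2a1 did not separate the groups in keratinocyte-like, neutrophil-like or dendritic-like cells. Slc16a3, the lactate exporter of glycolytic cells, had 13.5 and 45.6 CPM in uninjected and 107 and 52.1 CPM in injected macrophage-like cells (log2 difference 1.10, SE 0.51, adjusted p = 0.996 in the edgeR test), which was 0.54 without injected 1 and 2.55 without uninjected 2. Over the 17 pairs of transporter and class, 12 estimates were higher, and 8 were higher and 0 lower without overlap, beside 20.4% and 19.2% of all pairs of gene and class. Slc2a3, another glucose transporter, had at most 4 UMIs in any tested class and was tested in none.

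Estimates for the hexose enzymes had different signs. Of 41 pairs of enzyme and class, 23 were higher and 18 lower. Without overlap 15 were higher and 7 lower, beside 20.4% and 19.2% of all pairs of gene and class. Gpi, the isomerase that turns glucose phosphate into fructose phosphate, was higher without overlap in neutrophil-like and macrophage-like cells, and its log2 difference ran from −0.02 in fibroblast-like to 0.66 in macrophage-like cells. Pfkl, the liver-type phosphofructokinase, was higher by estimate in all 6 classes and without overlap in 4. In T and NK-like cells it had 48.0 and 43.2 CPM in uninjected and 72.8 and 90.9 CPM in injected libraries (log2 difference 0.86, SE 0.27, adjusted p = 0.672 by edgeR's quasi-likelihood test). In dendritic-like cells it had 16.0 and 29.1 CPM against 51.9 and 38.0 CPM (log2 difference 0.90, SE 0.36, adjusted p = 0.902 in that edgeR test). The platelet-type Pfkp was lower by estimate in all 6 classes and without overlap in 4, with keratinocyte-like levels of 74.1 and 55.2 CPM against 50.3 and 51.4 CPM. Estimates of 1 sign in all 6 classes were found for 7 members on the higher side and 2 on the lower, among 29 tested in all, against 11.4% and 12.2% of all genes. Of the same 29, 5 were higher without overlap in 4 or more classes (Pfkl, Egln3, Hif1a, Tpi1 and Pgam1) and 1 was lower (Pfkp). The shares of all genes were 7.0% and 6.51%. Hk2, the inducible hexokinase, was lower without overlap in neutrophil-like, macrophage-like and dendritic-like cells and higher without overlap in fibroblast-like cells. Neutrophil-like cells held 133 and 144 CPM of Hk2 in uninjected and 96.2 and 67.0 CPM in injected libraries (log2 difference −0.75, SE 0.36, adjusted p = 0.522 by the edgeR test), while fibroblast-like cells held 276 and 285 CPM against 494 and 371 CPM (log2 difference 0.62, SE 0.27). Hk1, the constitutive hexokinase, had 10.6 and 6.38 CPM against 13.1 and 21.2 CPM in neutrophil-like cells, on 19 to 38 UMIs a library.

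The bifunctional enzymes Pfkfb3 and Pfkfb4 set the level of the activator of phosphofructokinase. Of their 12 pairs of gene and class, 4 were higher and 8 lower by estimate. Without overlap 2 were higher and 2 lower, beside 20.4% and 19.2% of all pairs. Pfkfb3 in fibroblast-like cells had 36.1 and 41.6 CPM in the uninjected and 105 and 64.8 CPM in the injected libraries, a log2 difference of 1.12 (SE 0.28, adjusted p = 0.345 by edgeR's quasi-likelihood test). In the other 5 classes its log2 difference lay between −0.33 and 0.14. Pfkfb4 in T and NK-like cells had 10.3 and 14.4 CPM against 5.40 and 2.22 CPM (log2 difference −1.62, SE 0.59, adjusted p = 0.672 in that test), which rested on 2 to 23 UMIs a library.

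Enzymes of the later, triose phase of glycolysis were higher by estimate in 22 of 30 pairs of enzyme and class, with 13 pairs higher and 1 lower without overlap, beside 20.4% and 19.2% of all pairs of gene and class. Tpi1, which interconverts the triose phosphates, was higher without overlap in neutrophil-like, macrophage-like, dendritic-like and T and NK-like cells. In neutrophil-like cells it had 120 and 178 CPM in uninjected and 213 and 303 CPM in injected libraries (log2 difference 0.79, SE 0.39), and in T and NK-like cells 17.1 and 33.8 CPM against 45.9 and 70.9 CPM (log2 difference 0.99, SE 0.39, adjusted p = 0.672 by edgeR's quasi-likelihood test). In dendritic-like cells Tpi1 had 33.4 and 32.7 CPM against 43.5 and 44.5 CPM (log2 difference 0.42). Pgam1, phosphoglycerate mutase, was higher without overlap in the same 4 classes, with 83.1 and 120 CPM against 191 and 155 CPM in neutrophil-like cells. Up to 53.8% of its neutrophil-like UMIs in a library could be free RNA, and the log2 difference was 0.77 as measured and 1.04 with free RNA taken off. In T and NK-like cells Pgam1 had 312 and 362 CPM against 462 and 528 CPM (log2 difference 0.55). Eno1, enolase, had 405 and 686 CPM against 1030.0 and 817 CPM in macrophage-like cells (log2 difference 0.74, SE 0.42), and was also higher without overlap in T and NK-like cells. Pgk1, phosphoglycerate kinase, was higher without overlap in neutrophil-like, macrophage-like and T and NK-like cells, where uninjected 1 was the lowest library each time. In fibroblast-like cells 2 of 5 triose enzymes were higher by estimate and in keratinocyte-like cells 3 of 5, with 0 higher without overlap in either class.

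At the end of the pathway, Ldha, lactate dehydrogenase A, had 776 and 1718 CPM in uninjected and 3092 and 2308 CPM in injected macrophage-like cells, a log2 difference of 1.10 (SE 0.47, adjusted p = 0.996 by edgeR's quasi-likelihood test). The groups did not overlap, although uninjected 2 was closer to injected 2 than to uninjected 1. Ldha was higher by estimate in all 6 classes, and its log2 difference was 0.06 in T and NK-like and 0.17 in keratinocyte-like cells. Pdk1, a kinase that inhibits pyruvate dehydrogenase, had 2.67 and 3.75 CPM against 12.7 and 7.53 CPM in dendritic-like cells. Its log2 difference was 1.54 (SE 0.50, adjusted p = 0.902 in the edgeR test), on 2 UMIs in uninjected 1 and 22 to 48 in the others. Ldha and Pdk1 made 12 pairs of gene and class, 11 higher and 1 lower by estimate. Without overlap 5 were higher and 0 lower, beside 20.4% and 19.2% of all pairs.

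Bnip3, a mitophagy receptor and classical hypoxia target, was higher by estimate in all 6 classes. In neutrophil-like cells it had 49.1 and 34.1 CPM in the uninjected and 102 and 93.8 CPM in the injected libraries, a log2 difference of 1.24 (SE 0.36, adjusted p = 0.495 by edgeR's quasi-likelihood test). The injected values were close together there and well above both controls. In keratinocyte-like cells it had 18.7 and 49.8 CPM against 75.6 and 54.7 CPM, and in dendritic-like cells 10.7 and 12.8 CPM against 27.6 and 17.5 CPM. In macrophage-like cells (162 and 275 CPM against 561 and 256 CPM) and fibroblast-like cells (134 and 165 CPM against 338 and 121 CPM) the groups overlapped, since injected 2 lay below uninjected 2. Ddit4, an inhibitor of mTORC1 induced by low oxygen and stress hormones, had 159 and 232 CPM in uninjected and 448 and 450 CPM in injected fibroblast-like cells. Its log2 difference of 1.20 (SE 0.28, adjusted p = 0.323 by edgeR's quasi-likelihood test) carried the smallest p of any member in any class, and the 2 injected libraries were nearly equal. In T and NK-like cells Ddit4 lay the other way, at 373 and 556 CPM against 365 and 357 CPM.

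Ndrg1, a differentiation and stress gene of epithelia, was higher without overlap in fibroblast-like cells (186 and 237 CPM against 451 and 269 CPM) and lower without overlap in neutrophil-like, dendritic-like and T and NK-like cells. In the neutrophil-like cells (161 and 118 CPM against 91.4 and 73.7 CPM) 59.8% of its pooled UMIs could be free RNA. The log2 difference there was −0.75, and it was −0.46 with free RNA taken off and −0.47 without uninjected 1. The upper estimate of free RNA in that class, from keratin genes, was 13.72% in uninjected 1 and 4.36% to 4.50% in the other libraries. Higd1a, a mitochondrial protein induced by hypoxia, was lower by estimate in all 6 classes, but uninjected 1 alone was high: fibroblast-like cells held 245 CPM in uninjected 1, 102 in uninjected 2, and 157 and 96.7 CPM in the injected libraries. Car9, the membrane carbonic anhydrase, was tested in keratinocyte-like and fibroblast-like cells only, with 6.59 and 6.40 CPM against 4.99 and 3.95 CPM in the former. Mxi1, an antagonist of Myc, had 74.6 and 78.1 CPM against 60.5 and 50.8 CPM in keratinocyte-like cells (log2 difference −0.46, SE 0.17, adjusted p = 0.835 by the edgeR test). Bnip3l, the paralog of Bnip3, stayed between −0.12 and 0.60, and Ankrd37, a small ankyrin protein, between 0.12 and 0.45 in the 4 classes that tested it. Together with Bnip3 and Ddit4, these mitophagy, stress and other hypoxia genes made 42 pairs of gene and class. By estimate 23 were higher and 19 lower. Without overlap 11 were higher and 8 lower, beside 20.4% and 19.2% of all pairs.

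The enzymes that fold and hydroxylate secreted proteins were higher by estimate in 15 of 17 pairs of gene and class. Of all genes, 46.3% to 53.5% were higher by class. Without overlap 9 pairs were higher and 1 lower, beside 20.4% and 19.2% of all pairs of gene and class. The pairs come from Ero1a, P4ha1 and P4ha2 in the same libraries and are not independent. P4ha1, a catalytic subunit of the collagen prolyl hydroxylase, had 68.2 and 85.2 CPM in uninjected and 119 and 104 CPM in injected keratinocyte-like cells (log2 difference 0.54, SE 0.20, adjusted p = 0.835 by edgeR's quasi-likelihood test). P4ha2, the other such subunit, had 6.75 and 21.1 CPM against 44.8 and 44.3 CPM in macrophage-like cells (log2 difference 1.26, SE 0.45, adjusted p = 0.996 in the edgeR test), with 1 UMI in uninjected 1. Ero1a, the oxidase that recharges disulfide isomerase, was higher by estimate in all 6 classes. In fibroblast-like cells it had 137 and 165 CPM against 505 and 211 CPM (log2 difference 1.24, SE 0.42, adjusted p = 0.440 by that test), so injected 1 stood far above injected 2, and the difference was 0.48 without injected 1. In T and NK-like cells Ero1a had 51.4 and 54.5 CPM against 84.1 and 76.5 CPM (log2 difference 0.59), and in dendritic-like cells 57.4 and 47.0 CPM against 93.5 and 57.1 CPM, with overlap.

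**Figure D3:**
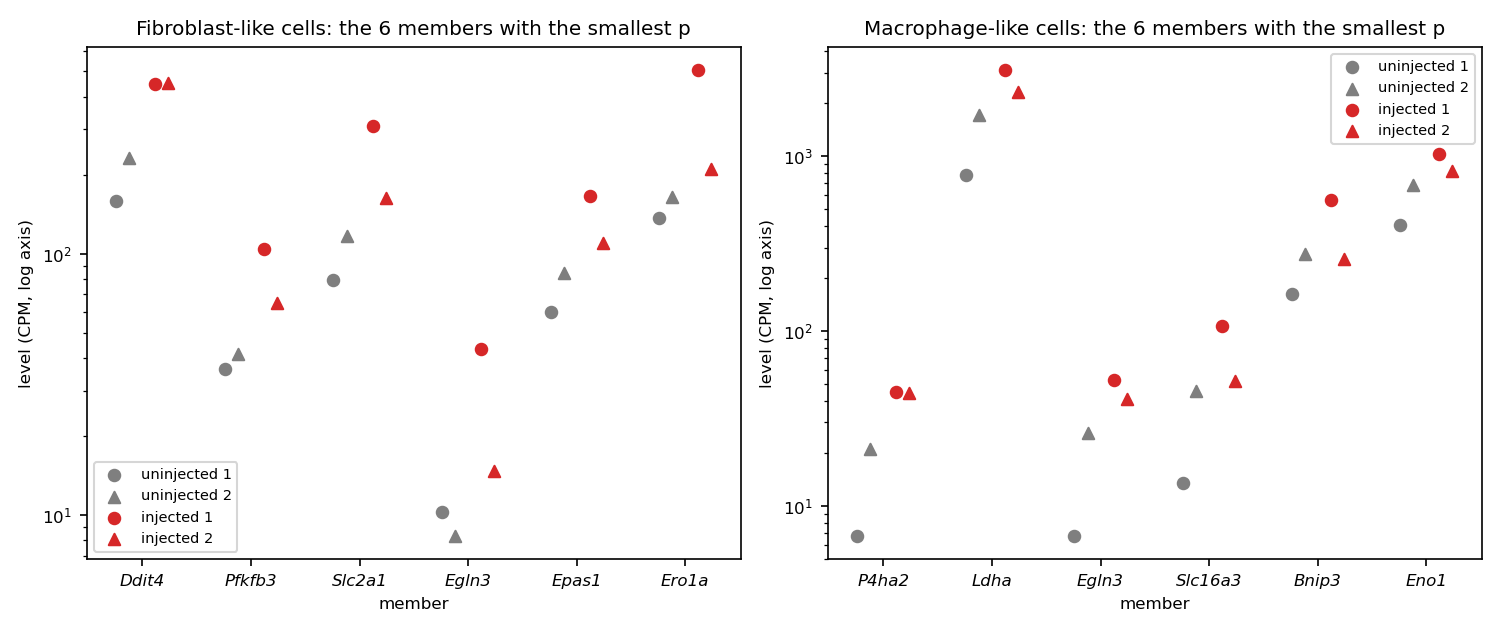
Level (CPM within the class, log axis) in each library of the 6 members with the smallest p in fibroblast-like cells (left) and macrophage-like cells (right): grey points are uninjected, red points injected, circles replicate 1 and triangles replicate 2. In fibroblast-like cells both red points lie above both grey points for all 6 members, and the red circle of injected 1 stands well above injected 2 for Slc2a1, Egln3 and Ero1a but not for Ddit4.

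Whether the effect in 1 class differed from that in the others was tested directly in a joint fit. No member passed in any class (0.00818% of all genes passed in keratinocyte-like, 0.0736% in neutrophil-like, 0.0% in macrophage-like, 0.0% in dendritic-like, 0.0245% in T and NK-like and 0.164% in fibroblast-like cells). At an unadjusted p under 0.05 the edgeR quasi-likelihood test gave 12 members in fibroblast-like cells, 5 in macrophage-like, 4 in neutrophil-like, 3 in dendritic-like, 3 in T and NK-like and 0 in keratinocyte-like cells, each of 35. The same threshold took 7.73%, 6.67%, 10.8%, 4.44%, 6.43% and 4.26% of all genes in that order of classes. These members did not share a sign. In fibroblast-like cells the effects of Tpi1, Eno1, Pgk1, Slc16a3 and Pfkl lay below those of the other classes, and the rest above. Hk2, Egln3 and Ndrg1 lay below in neutrophil-like cells and Egln1 above. All lay above in macrophage-like cells and all below in T and NK-like cells, while in dendritic-like cells Pdk1 lay above and Slc2a1 and P4ha2 below. No other tool was run on this comparison. The smallest adjusted p by edgeR was 0.101, for Ddit4 in fibroblast-like cells, where its effect was 1.07 log2 units above that of the other classes (SE 0.25).

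Between classes, the members differed far more than between groups. Each class was compared with the mean of the others, with the library as a block, and a call needed an adjusted p under 0.05 and a 2-fold difference. The scaling matters here: TMM divided the neutrophil-like libraries by factors of 0.35 to 0.47, and the median difference of the members in neutrophil-like cells was 1.01 with TMM (all genes −0.17) and −0.53 as CPM with no TMM factor (unscaled CPM) (all genes −1.74). The counts that follow therefore hold under both scalings, and the levels are unscaled CPM in uninjected 1, uninjected 2, injected 1 and injected 2.

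Neutrophil-like cells were higher in 5 of 35 members (9.42% of all genes) and lower in 0 (23.0%). These were Egln1, with 32.7, 24.1, 42.6 and 45.3 unscaled CPM, Slc16a3, Pkm, Pfkfb4 and Tpi1. With TMM, Egln1 stood 3.61, Slc16a3 3.37, Pfkfb4 3.13 and Tpi1 2.88 log2 units above the other classes. Pkm, pyruvate kinase, had 274, 205, 237 and 199 unscaled CPM, 3.32 log2 units above the other classes with TMM (SE 0.11) and 1.76 without. With TMM alone 18 of 35 members were called higher in these cells, against 23.8% of all genes. Without TMM 12 were called lower. The share of all genes called lower without TMM was not counted, and their median there was −1.74.

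Macrophage-like cells were higher in 8 members (12.6% of all genes) and lower in 2 (14.1%). Bnip3 led, at 170, 286, 514 and 247 unscaled CPM and 2.85 log2 units above the other classes (SE 0.15, adjusted p = 1.46e-14 by edgeR's quasi-likelihood test). Slc16a3 was 1.96 log2 units higher, Aldoc 1.86, Pfkfb3 1.62, Ankrd37 1.42, Tpi1 1.32, P4ha2 1.24 and Aldoa 1.12. The muscle-type Pfkm, with 0.0 UMIs in both uninjected libraries, and Pfkp were lower, and the Pfkm call was lost without either uninjected library.

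Fibroblast-like cells were higher in 7 members (27.0% of all genes) and lower in 2 (13.1%). P4ha2, which acts on the collagen these cells secrete, had 147, 315, 329 and 351 unscaled CPM and stood 4.72 log2 units above the other classes (SE 0.15, adjusted p = 5.15e-20 by edgeR's quasi-likelihood test). Epas1 was 2.67 log2 units higher, Pfkm 2.56, Bnip3 1.74, Ankrd37 1.59, Hk2 1.30 and Aldoc 1.07. The log2 difference from the other classes was −2.22 for Pfkfb4 and −1.38 for Egln3.

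Keratinocyte-like cells were higher in 5 members (21.1% of all genes) and lower in 2 (14.8%). Ndrg1 had 1208, 1463, 1604 and 1329 unscaled CPM, 2.58 log2 units above the other classes (SE 0.16), followed by Pfkp at 2.25, Car9 at 2.15, Pfkm at 1.69 and Egln3 at 1.05. Slc16a3 had a log2 difference of −3.41 there, at 1.74 to 4.13 unscaled CPM, and Egln1 one of −1.42. Of the 3 phosphofructokinase genes, Pfkp was called higher in keratinocyte-like cells, Pfkm in keratinocyte-like and fibroblast-like cells, and Pfkl was called higher in none under both scalings.

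Dendritic-like cells were higher in 2 members, Pfkfb4 and Slc2a1 (14.6% of all genes), and lower in 11 (13.5%). Bnip3 had 9.25, 13.3, 29.5 and 17.7 unscaled CPM, a log2 difference of −2.55 from the other classes (SE 0.22). The difference was −2.30 for P4ha2, −2.03 for Epas1, −1.95 for Pdk1, −1.85 for Car9 and −1.85 for Tpi1, and the Car9 call was lost without uninjected 2 or without injected 2. T and NK-like cells were higher in 0 members (16.8%) and lower in 11 (14.4%), and with TMM alone lower in 17 (24.8%). The log2 difference was −3.52 for Ndrg1, −3.27 for P4ha2, −3.13 for Bnip3, −3.01 for Slc16a3, −2.50 for Hk2 and −2.27 for Slc2a1.

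**Figure D4:**
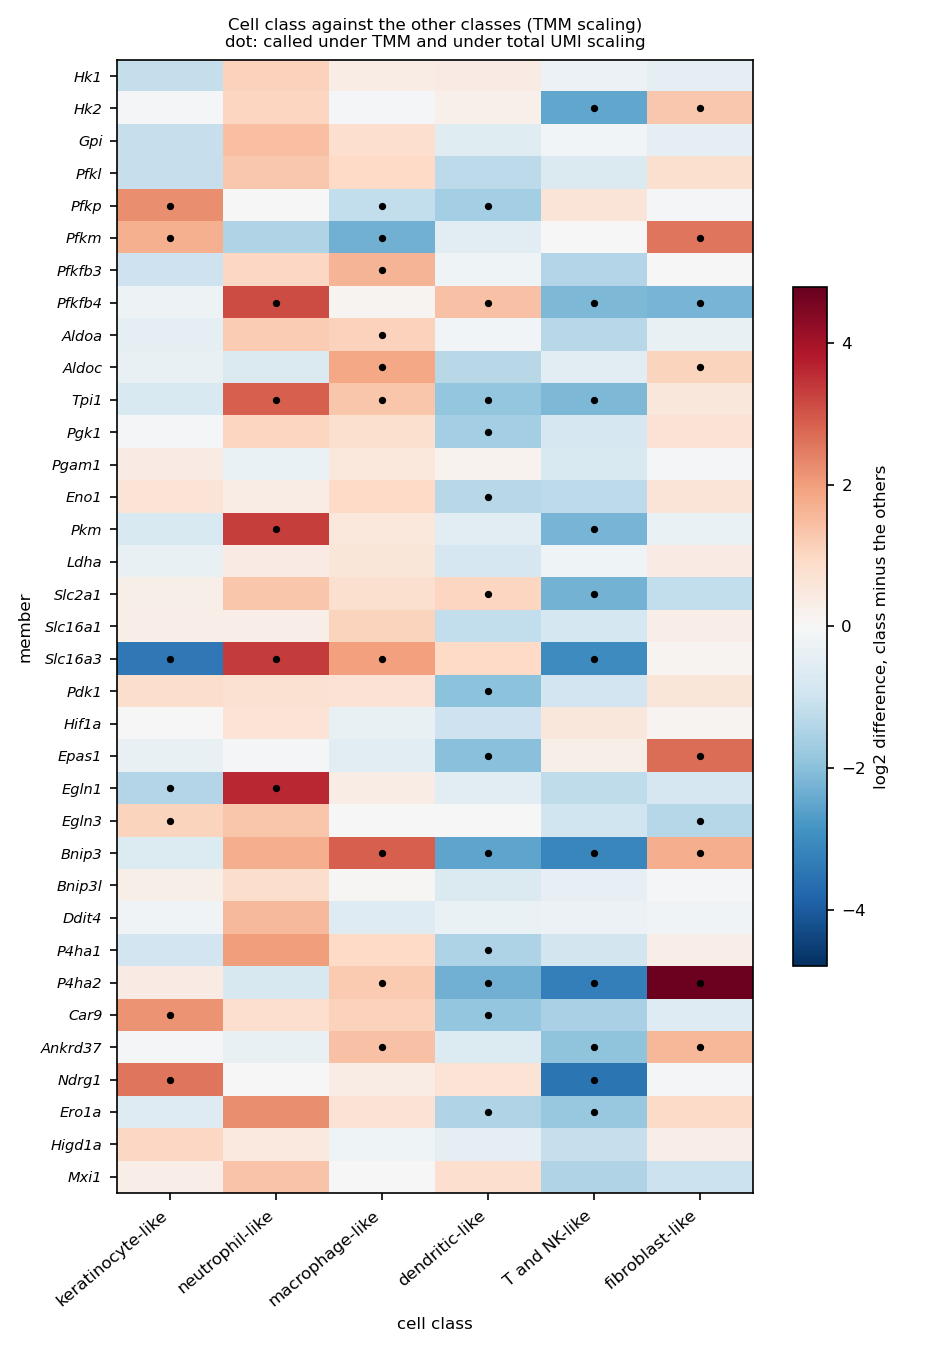
Log2 difference of each cell class from the mean of the other classes (color, TMM scaling) for the 35 tested members (rows) in the 6 classes (columns), with a dot where the difference was called under TMM and under total UMI scaling. P4ha2 in the fibroblast-like column is the strongest cell at 4.72, and the T and NK-like column holds 11 dots, all on lower values.

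The neighbours of these pathways, taken from lists of 27 glycolysis, 7 pentose phosphate and 28 hypoxia genes, gave 0 calls in any class between injected and uninjected wounds. In fibroblast-like cells 19 of 27 tested hypoxia neighbours were higher by estimate, 16 of them without overlap (21.6% of all genes), and their median log2 difference was 0.46. Adm, the vasodilator peptide adrenomedullin, had 118 and 112 CPM in uninjected and 356 and 210 CPM in injected fibroblast-like cells (log2 difference 1.30, adjusted p = 0.323 by edgeR's quasi-likelihood test). Vegfa, the main vessel growth factor, had 613 and 540 CPM against 1201 and 958 CPM in these cells (log2 difference 0.91). In neutrophil-like cells Vegfa lay the other way, at 376 and 573 CPM against 283 and 278 CPM. The median log2 difference of the hypoxia neighbours was 0.19 in keratinocyte-like, 0.15 in neutrophil-like, 0.22 in macrophage-like, 0.12 in dendritic-like and −0.07 in T and NK-like cells, and that of the glycolysis neighbours ran from −0.22 in neutrophil-like to 0.26 in T and NK-like cells.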

How the data were processed

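The authors deposited UMI counts as whole numbers for each gene in each barcode, with empty droplets kept. Per the file headers these counts came from Cell Ranger 7.2.0, whereas version 5.0.1 stands in the submitters' processing notes. For the build and gene models of these counts, the sources used here give nothing. Other deposited values are gene identifiers and barcodes.

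Barcodes with 500 or more UMIs, 250 or more genes and at most 20% mitochondrial UMIs were kept. Each was assigned to a class by the likelihood of its counts over 115 marker genes, against the other classes and free RNA, and 3724 barcodes that a mixture of 2 classes explained better were left out as doublets. The markers were listed from earlier knowledge, and the scoring rule was set after cell numbers were seen. UMIs were summed per class and library, and sums were tested with edgeR 4.0.16 (R 4.3.3; TMM, filterByExpr, quasi-likelihood, Benjamini-Hochberg over all tested genes), and with DESeq2 1.42.0 as an alternative. The class comparison and the test of effects between classes used a library block. Free RNA was estimated from barcodes of 10 to 100 UMIs and from markers of other classes, as an upper share. The fits were also run on simulated counts with known changes, drawn at a fixed spread with no library set apart. That run cannot show how the fits behave with a library such as uninjected 1. Members, gene lists and tests were chosen with earlier results of these data known. Members matched to a row are described, with values in every library for the 6 of smallest p in each class; further values were chosen after they were seen. A comparison of suprabasal with basal keratinocyte-like cells, added after seeing the data, is not reported, since uninjected 1 held 4 suprabasal cells.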

Additional observations from a re-analysis of the deposited data

Results flagged for a closer look

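Endothelial-like cells, with 37 to 170 cells a library, and mast-like cells, with 37 to 53, were too few for the tests. Among genes with 10 or more UMIs in each injected library, 3 of 26 members in endothelial-like cells (1.4% of all such genes) and 1 of 15 in mast-like cells (2.93%) were at least 2-fold higher in each injected than in each uninjected library. This filter looks at the injected libraries alone, so genes enter through the group where they are high, and lower genes were not counted. Hif1a in endothelial-like cells lay the other way, at 1109 and 841.5 unscaled CPM in uninjected and 522.6 and 669.5 in injected libraries. So did Ndrg1, at 381.2 and 456.6 against 209.8 and 264.8 unscaled CPM. None of these differences was tested. Egln3 in endothelial-like cells averaged 151.3 unscaled CPM (UMIs over the class total, with no TMM factor) in injected against 48.5 in uninjected libraries (54.5 and 42.4 against 193 and 110), in the same libraries as the tested classes. Bnip3 in endothelial-like cells averaged 225.4 against 73.0 unscaled CPM. Slc16a3 in endothelial-like cells averaged 29.3 against 4.39 unscaled CPM, on 0 and 6 UMIs in the uninjected libraries. Pfkl in mast-like cells averaged 87.9 against 25.0 unscaled CPM, on 3 and 2 UMIs in the uninjected libraries. Injected 1 held 170 of the endothelial-like cells and more UMIs per cell (median 18298) than the other libraries (7389 to 10872), and the part of this depth in the values was not tested.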

How the results depend on the processing

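The labels do not say whether same-numbered libraries are paired. Their deviations from the group means correlated at −0.169 to 0.0306 across genes. This correlation rests on 1 difference between replicates per group and cannot decide whether a day or batch was shared. With the replicate block, 0 members passed in each class, and 16 genes passed in macrophage-like cells in place of 1. With crossed pairs, added after seeing the data like total UMI scaling, 0 members passed, with 157 genes in dendritic-like, 30 in T and NK-like, 14 in macrophage-like, 8 in fibroblast-like and 2 in neutrophil-like cells. Leaving out 1 library at a time gave 0 to 11 members in fibroblast-like cells, 0 to 9 in neutrophil-like, 0 to 3 in dendritic-like, 0 to 3 in T and NK-like, 0 to 2 in macrophage-like and 0 to 0 in keratinocyte-like cells. Genes called then ran from 0 to 1521 in fibroblast-like (4 with all libraries), 0 to 1235 in neutrophil-like, 0 to 683 in dendritic-like, 0 to 663 in T and NK-like, 0 to 127 in macrophage-like and 0 to 0 in keratinocyte-like cells. The members' median then ran from 0.072 to 0.452 in keratinocyte-like, 0.34 to 0.59 in neutrophil-like, 0.15 to 0.70 in macrophage-like, 0.078 to 0.155 in dendritic-like, 0.068 to 0.33 in T and NK-like and 0.064 to 0.427 in fibroblast-like cells.

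DESeq2 called 1 member and 181 genes in fibroblast-like cells, and 56, 35, 3, 15 and 5 genes in keratinocyte-like, neutrophil-like, macrophage-like, dendritic-like and T and NK-like cells. With no low-count filter 5 members and 600 genes passed in fibroblast-like cells, and 2 genes in neutrophil-like, 44 in macrophage-like, 256 in dendritic-like and 205 in T and NK-like cells. The cause of these shifts was not tested. Without ribosomal and mitochondrial genes 7 genes passed in fibroblast-like cells, with free RNA taken off 2 in macrophage-like cells, and with total UMI scaling 2 in T and NK-like cells. The members' median moved to 0.24 in neutrophil-like cells with free RNA taken off, to 0.32 in T and NK-like cells with total UMI scaling, and in dendritic-like cells to 0.083 (DESeq2), 0.16 (no low-count filter), 0.24 (total UMI scaling), 0.16 (every second marker) and 0.17 (without the top 5% of UMIs). Slc2a1 in T and NK-like cells reversed to −0.61 when every second marker was used.

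Of the class comparison, total UMI scaling gave 5 higher and 12 lower members in neutrophil-like cells in place of 18 and 0. It gave 4 higher in dendritic-like in place of 2, and 3 higher and 11 lower in T and NK-like in place of 0 and 17. In keratinocyte-like and fibroblast-like cells it gave 2 lower in place of 5 and 4. With TMM, 23.8% of all genes were higher and 23.0% lower in neutrophil-like cells, and 14.6% were higher in dendritic-like cells. In T and NK-like cells 16.8% were higher and 24.8% lower. Lower were 18.2% in keratinocyte-like and 16.6% in fibroblast-like cells. Shares of all genes were not counted under total UMI scaling alone or the other alternatives of this comparison. Free RNA taken off gave 2 lower in neutrophil-like and 1 higher in dendritic-like cells, as did every second marker in the latter. Leaving out 1 library gave 0 to 1 lower in neutrophil-like, 1 to 2 lower in macrophage-like and 2 to 4 higher in dendritic-like cells. In the test of effects between classes 0 members passed under each of the 8 alternatives run, while the genes called ran from 0 to 65 in neutrophil-like (9 in the reported fit), 1 to 20 in fibroblast-like (20), 0 to 5 in keratinocyte-like (1), 0 to 4 in macrophage-like (0), 0 to 5 in dendritic-like (0) and 0 to 3 in T and NK-like cells (3). With 54 macrophage-like cells in uninjected 1, members at 1 UMI there cannot show a difference firmly.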

Other observations

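The 3 genes that follow were chosen after their values were seen, and their differences between groups did not pass edgeR's quasi-likelihood test in any class. Pygl, the liver-type glycogen phosphorylase that releases glucose from glycogen, had 1014 CPM in the dendritic-like class of uninjected 1, against 3.75 (uninjected 2), 9.01 (injected 1) and 5.82 CPM (injected 2). It was seen in 57 of 158 of those cells in uninjected 1 (36.1%, 95% Wilson interval 29.0% to 43.8%, counting error only), with up to 72 UMIs in a cell, and in 3.36% to 6.71% of dendritic-like cells of the other libraries, with at most 3 UMIs in a cell. Fibroblast-like cells of uninjected 1 had it in 14.3% of cells and held 13.3 CPM, the lowest of the 4 libraries, and its free RNA held 24.5 unscaled CPM of Pygl, also the lowest. Neutrophil-like cells of uninjected 1 held 219 CPM against 41.0 to 46.2 CPM in the others.

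Hmox1, the heme oxygenase that breaks down heme, stood at 1531 and 338 CPM in T and NK-like cells without injection and at 214 and 89.8 CPM with it. In the neutrophil-like class the levels were 8053 and 4610 CPM without injection and 3592 and 1433 CPM with it, and the free RNA followed the same order, with 1072, 732, 638 and 408 unscaled CPM. With free RNA taken off, the log2 difference was −1.51 in neutrophil-like cells (−1.33 as measured) and −2.64 in T and NK-like cells (−2.59 as measured). Hmox1 was also lower without overlap in dendritic-like cells, but the groups overlapped in keratinocyte-like, macrophage-like and fibroblast-like cells. The fibroblast-like levels were 1119 and 610.5 CPM without injection and 762.6 and 662.6 CPM with it. Mpc2, a subunit of the mitochondrial pyruvate carrier, was highest in uninjected 1 in all 6 classes, with 51.3 CPM against 11.0 to 15.5 CPM in fibroblast-like cells.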
